A study of Mus musculus with 2 samples.

Results

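The Igf2-H19 imprinted locus was examined in CTCF peak lists from newborn mouse kidney. It was taken as 5 listed genes, Igf2, H19, Ins2, Nctc1 and Mrpl23, and as peaks of the optimal list. That list is the longer of 2 deposited lists filtered for reproducibility, and 63805 of its peaks had a matching peak in both libraries. Every peak of it whose summit fell in chr7:142525529-142743381 (mm10) was taken. That window of 217.9 kb runs from 50 kb beyond the 3' end of H19 to the far end of the Ins2 gene model. It held 21 of the 65482 optimal peaks, numbered here 1 to 21 in order of position. The data came from whole kidney tissue of B6NCrl mice, postnatal, 0 days old, in which CTCF-bound DNA was collected by chromatin immunoprecipitation and sequenced. The 2 libraries form 1 group and are numbered as biological replicates 1 and 2, but the labels give them the same biosample and donor identifiers, so their spread may be technical. No treatment, genotype or second group is labelled, sex was not collected, and no comparison between groups was made.

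CTCF is a zinc-finger protein that binds DNA at insulators and at the anchors of chromatin loops. Igf2, a fetal growth factor gene expressed from the paternal chromosome, and H19, a non-coding RNA gene expressed from the maternal chromosome, share enhancers that lie beyond H19. Between them, upstream of H19, lies an imprinting control region. On the maternal chromosome it is unmethylated and CTCF bound there insulates Igf2 from the enhancers, and on the paternal chromosome CpG methylation of its CTCF sites prevents binding. The peak lists do not separate the parental chromosomes, and they hold no expression values, so neither the allele bound nor the cell types of the tissue could be checked.

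The lists hold no read counts, and sequencing depth is unknown. Peak height, the signal value the authors' peak caller gave, is therefore reported as a percentile (the share of peaks with a lower signal) or a rank within 1 list. Percentiles of a library are taken among its peaks that match optimal peaks. The window held 9.64 optimal peaks per 100 kb against 2.49 over all 20 chromosomes. Its peaks ran from percentile 10.1 to 95.8, with a median of 68.7. Of the 21 peaks, 18 (85.7%) overlapped the upper set of both libraries (as many of the library's highest peaks as the optimal list holds), against 78.6% of all optimal peaks. The conservative, stricter list held 19 of them, and 84.2% of all optimal peaks overlapped it.

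**Figure D1:**
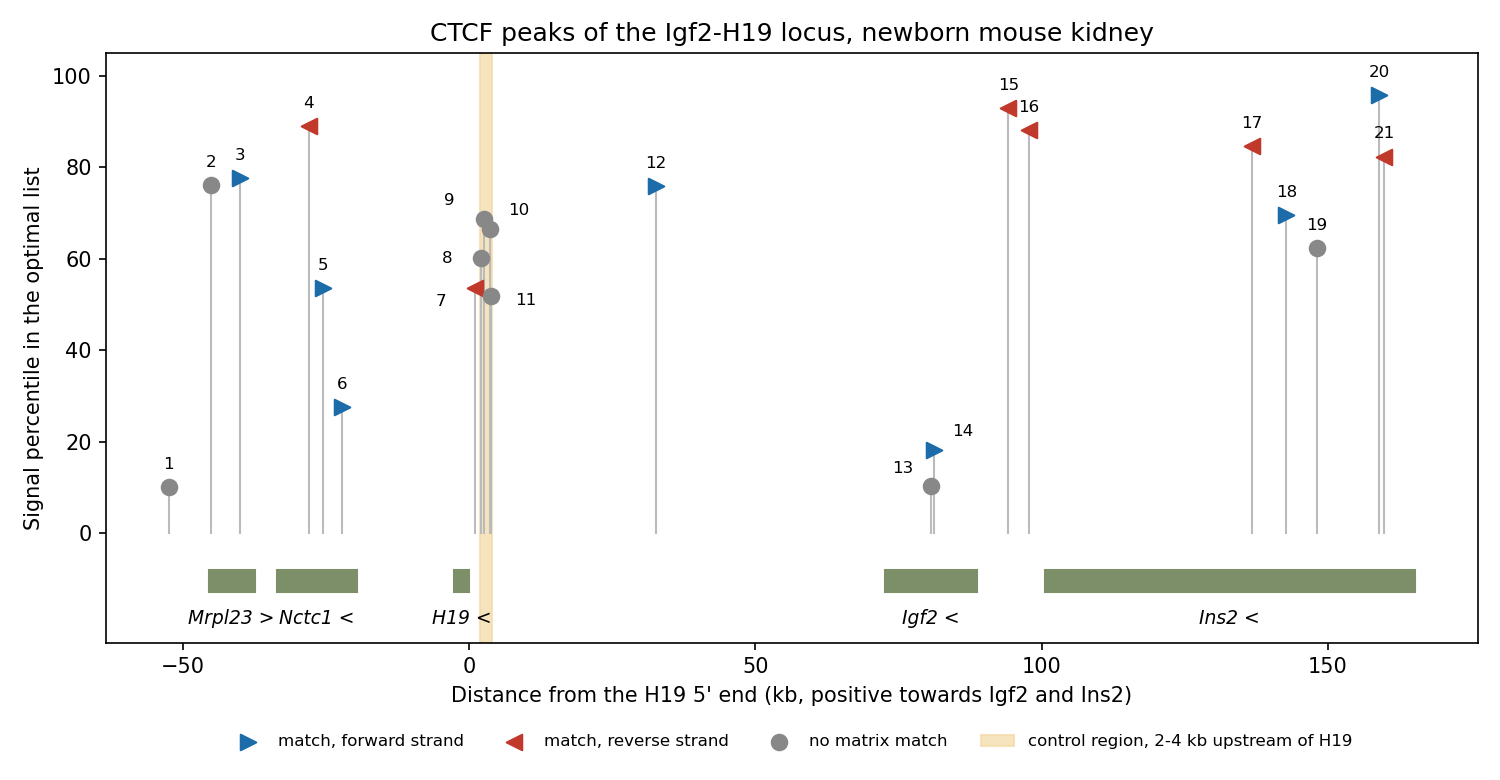
Each point is 1 of the 21 optimal CTCF peaks, placed by its distance from the H19 5' end in kb (x) and its signal percentile in the optimal list (y); triangles show the strand of the motif match, grey circles a peak without one, and bars under the plot the 5 genes with their direction of transcription. The 4 peaks in the shaded control region lie between percentiles 51.9 and 68.7, below the peaks between Igf2 and Ins2 at 88.2 and 92.9.

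The control region, taken as 2 to 4 kb upstream of the H19 5' end (chr7:142580143-142582143), held 4 peaks, and each lay over a similar short sequence. Their sites are shown because CTCF sites here are those through which the control region is known to act. Comparing all stretches of 14 bp on both strands within 100 bp of the 4 summits, the set with the most bases in common gave the string CCGCNNGGNGGCAG (N, any base). It was derived from these peaks, so its presence at each of them is no finding. The search left the strand free at peaks 9 to 11, and all 4 copies lay on the reverse strand, in the direction in which H19 and Igf2 are transcribed. No further copy lay in the window. The sites are printed on that strand, 5' to 3', with 19 bp that include the string in capitals, from GRCm38.p6 (the assembly of mm10).

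Peak 8, chr7:142580297-142580335: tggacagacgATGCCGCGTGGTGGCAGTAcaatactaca
Peak 9, chr7:142580752-142580790: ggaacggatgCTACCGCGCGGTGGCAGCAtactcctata
Peak 10, chr7:142581778-142581816: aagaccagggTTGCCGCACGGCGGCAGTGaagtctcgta
Peak 11, chr7:142582022-142582060: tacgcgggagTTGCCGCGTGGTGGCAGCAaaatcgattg

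The search chose these places for their bases in common, so identity inside the capitals is a description. Sites 8 and 11 were identical at 17 of 19 positions and at 24 of 39, and the least similar, 9 and 10, at 13 of 19 and 21 of 39. The 19 bp of peaks 8 and 11 held 2 CpG dinucleotides, the methylatable sites, and those of peaks 9 and 10 held 3. The string itself holds a CpG, so each site has at least 1 by construction. Over all optimal peaks on odd-numbered chromosomes, 10.9% had at least 2 CpG in their best-scoring 19 bp for the CTCF matrix described next. Peaks 8, 9 and 11 did too, while the best-scoring 19 bp of peak 10 lay elsewhere and held 0. The string lay within 100 bp of 0.229% of those peaks. On the odd-numbered chromosomes it occurred 267 times, and 30% of its copies lay under an optimal peak, and the 4 from which it was derived are among them.

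None of the 4 sites reached the score that counted as a match of the CTCF matrix (a 19-bp table of base preferences learned from peaks of even-numbered chromosomes). That score was 13.2 on a log2 odds scale, which 1 in 10000 positions in control windows passed. The sites of peaks 8, 9, 10 and 11 scored 11.2, 10, 8.3 and 12.6. They lay 1, 3, 42 and 1 bp from the optimal summits, so that of peak 10 was the least centred in that list. This did not hold in the libraries. In replicate 1 the site of peak 11 lay farther from its summit (3898 and 3876 bp upstream of H19) than that of peak 10 (3654 and 3667). In replicate 2 the site of peak 8 did (2173 and 2114, against 3654 and 3698 at peak 10). The best score within 100 bp of the summit was the site's own at peaks 8, 9 and 11 and was 9.7 at another place at peak 10. Scores of 12.6 and 9.7 were reached in 2.8% and 8.8% of control windows and in 72.0% and 84.4% of optimal peaks. Of optimal peaks on odd-numbered chromosomes at percentile 50 or above, 17.9% had no match.

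The control region peaks were of middle height and were found in both libraries. Peak 8 lay 2172 bp upstream of the H19 5' end and ranked 23735 of 300000 in replicate 1 and 31133 in replicate 2. Peak 9 lay 2631 bp upstream and ranked 20835 and 22538. Peak 10, 3696 bp upstream, ranked 24706 in replicate 1 and 19247 in replicate 2.

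Peak 11, 3899 bp upstream and only 203 bp from peak 10, ranked 35532 and 25599. Mean percentiles over the libraries were 57.7 ± 8.3 (SD, n = 2) for peak 8, 66.4 ± 2.3 for peak 9, 66.0 ± 5.5 for peak 10 and 52.8 ± 10.3 for peak 11. The order of the 4 peaks differed between the libraries: peak 9 was highest in replicate 1 and peak 10 in replicate 2. Neighbours in the order of mean percentile did not differ beyond this spread.

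The 4 peaks fell into 2 pairs with 459 bp and 203 bp between summits. Of all optimal peaks, 4.73% had another summit within 500 bp. Peaks 8 and 9 had 4 other summits within 2 kb and peaks 10 and 11 had 3; among all optimal peaks 0.528% had at least 3. The intervals of peaks 10 and 11 overlapped in both libraries but not in the optimal list, and each peak had its own summit in both libraries. In replicate 1 the overlap was slight, the first interval ending at 142581881 and the second starting at 142581879. In replicate 2 both were 410 bp wide, as were the intervals at peaks 7 and 8, so at this spacing they overlap by their width.

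**Figure D2:**
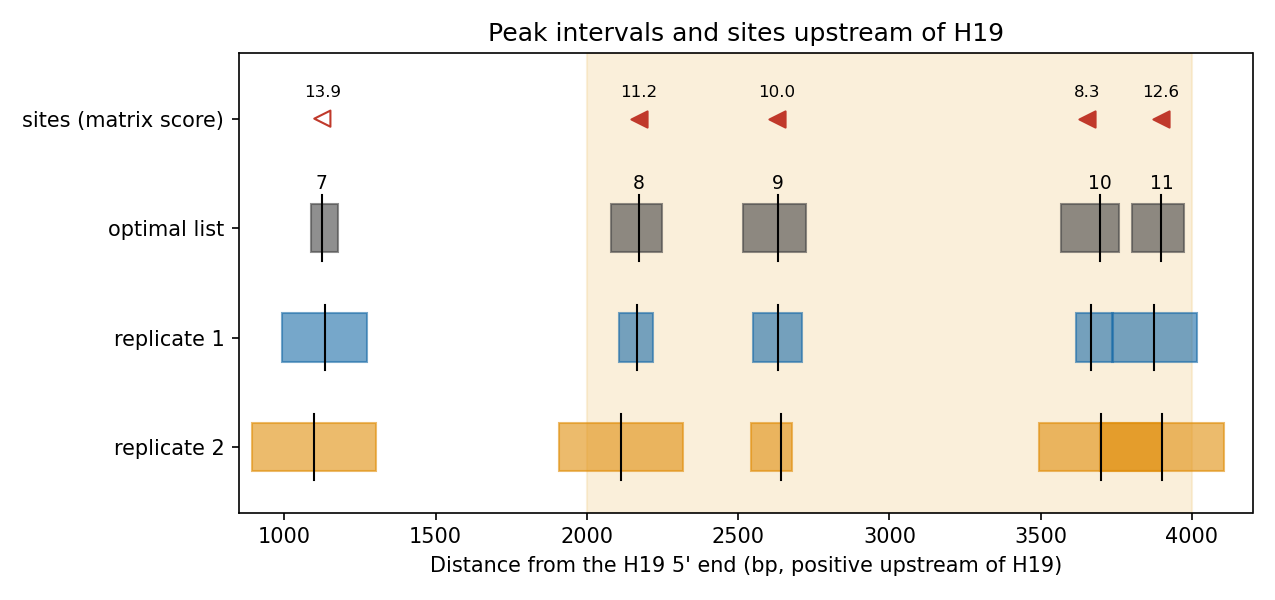
Intervals of the optimal list and of each library's upper set are drawn as boxes by distance from the H19 5' end in bp, with a line at each summit; filled triangles are the 4 copies of the string and the open triangle the matrix match at peak 7, all on the reverse strand, with the matrix score above each. Each library has 5 summits here, and the scores of the 4 control region sites, 8.3 to 12.6, are below the 13.9 at peak 7.

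H19 itself had no promoter peak, defined as a summit within 1 kb of an annotated transcription start. The nearest, peak 7 (chr7:142579233-142579320), lay 1124 bp upstream of the H19 5' end, outside the 2 to 4 kb region. It ranked 33200 in replicate 1 and 25679 in replicate 2, a mean percentile of 54.5 ± 7.7 (SD, n = 2), which overlaps the range of the control region peaks. Unlike them it had a matrix match on the reverse strand and no CpG in it.

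Peak 7, chr7:142579250-142579288: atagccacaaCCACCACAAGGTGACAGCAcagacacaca

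The H19 gene (chr7:142575529-142578143, reverse strand), which is also the host of miR-675, held no optimal peak. The relaxed list made from both libraries had 2 peaks inside it, at ranks 111089 and 223410 of 300000. It held 2 matrix matches, with scores of 14.7 and 16.0 and 1 and 2 CpG, and neither lay within 100 bp of a summit of the optimal or the pooled list. The match with the score of 16.0 lay inside the interval of the lower pooled peak. Of 9603 long non-coding genes, 18.4% had a promoter peak.

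The 2 peaks at the Igf2 promoters were among the 3 lowest of the window. Igf2 (chr7:142650766-142666816, reverse strand) had 9 annotated starts in GENCODE, and 1 of them, at 142659489, had a summit within 1 kb. Igf2os, an antisense transcript, has starts 336 and 355 bp from the summit of peak 14. Peak 13 (chr7:142658652-142658981) lay 13 bp upstream of a further start that RefSeq places at 142658804. Peak 14 (chr7:142659192-142659521) lay 132 bp from the GENCODE start. Both peaks have a fixed width of 330 bp, shared by 53.3% of optimal peaks. Each summit is the midpoint of its interval, so distances from these 2 peaks are approximate. The distal start at 142666816 and the RefSeq starts at 142661271 and 142657496 had no summit within 1 kb: the nearest summits lay 5505, 1914 and 1321 bp away.

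The ranks of peak 13 were 49694 in replicate 1 and 67330 in replicate 2. Those of peak 14 were 49994 and 156533. Mean percentiles were 19.4 ± 7.5 and 13.4 ± 15.5 (SD, n = 2), and for peak 14 this rests on the nearest summit in replicate 2. The other replicate 2 peak that overlapped peak 14 ranked 67330 and is the one matched to peak 13. In replicate 2 the peak matched to peak 13 had its summit 348 bp from that of replicate 1, between the pair. Both were inside the upper set of replicate 1 and outside that of replicate 2, and peak 14 was not in the conservative list. With replicate 1 left out, Igf2 no longer had a promoter peak in the upper set. The replicate 2 peak there, at rank 67330, lay just outside that set, which ends at rank 65482.

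The sequence around both Igf2 peaks was rich in G and C, 62.5% at peak 13 and 77.1% at peak 14 within 150 bp of the summit, where the median of optimal peaks on odd-numbered chromosomes was 48.2%. Peak 13 had no matrix match; its best score of 7.4 was reached in 18.6% of control windows. Peak 14 had one with a score of 15.7 and 3 CpG, 82 bp from the summit, farther than at any other matched peak of the window. That summit is the midpoint of a 330-bp interval, so the distance is approximate. Its 19 bp are shown because they are GC-rich throughout, chr7:142659430-142659448 on the forward strand: CGGCCGGAAGGGGGGGCCG.

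On the enhancer side of H19, which is where its endodermal and mesodermal enhancers are known to lie, 6 peaks fell in 50 kb. Nctc1, a non-coding RNA gene of the muscle enhancer region (chr7:142544609-142558596, reverse strand), held 3 of them and had no promoter peak; its nearest summit was 2674 bp from its start. Peak 4, in an intron of Nctc1, was the highest on this side. It ranked 10323 in replicate 1 and 4148 in replicate 2, a mean percentile of 88.8 ± 6.6 (SD, n = 2), and each library placed it above every control region peak.

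Peaks 5 and 6, in an intron and an exon of Nctc1, were lower, at 52.5 ± 3.3 and 23.6 ± 8.7. Peak 4 held 2 matches of nearly equal score, 14.8 on the reverse strand and 14.7 on the forward strand, so its direction is not settled by the score. Peaks 5 and 6 had forward matches, which point towards H19. The sites of peaks 4 and 5 are shown as those of the 2 higher Nctc1 peaks, each on its own strand; for peak 4 both are given, with the matches in capitals.

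Peak 4, reverse strand, chr7:142550105-142550143: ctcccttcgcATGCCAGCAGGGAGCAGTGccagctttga
Peak 4, forward strand, chr7:142550159-142550197: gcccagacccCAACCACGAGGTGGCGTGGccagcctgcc
Peak 5, forward strand, chr7:142552660-142552698: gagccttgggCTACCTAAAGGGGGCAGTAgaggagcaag

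Mrpl23, which encodes a mitochondrial ribosomal protein (chr7:142532686-142540747, forward strand), had the stronger of the window's promoter peaks. Peak 2 lay 37 bp from one of its starts and ranked 14658 in replicate 1 and 17622 in replicate 2, a mean percentile of 75.0 ± 3.6 (SD, n = 2). Within 150 bp of its summit 71.8% of bases were G or C, and it had no matrix match. Peak 3, in an intron of Mrpl23, stood at 78.2 ± 2.1 and had a forward match with a score of 17.3 and 1 CpG. These values do not differ beyond the spread between the libraries.

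Peak 1, at 142525700, was the lowest of the window. It ranked 67547 in replicate 1, had no overlapping peak in replicate 2, and had no matrix match. Of the 5 genes, Igf2 and Mrpl23 had a promoter peak; the share among 21755 protein-coding genes was 39.4%.

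No optimal peak lay in the 23.3 kb between peak 6 in Nctc1 and peak 7 upstream of H19, the stretch that holds the H19 gene and the sequence just beyond its 3' end. Peaks 3, 5 and 6 on the enhancer side had forward matches, peak 4 had one on each strand with the reverse one scoring higher, and peaks 7 to 11 upstream of H19 had reverse ones (a matrix match at peak 7 and the string at the other 4). The matches nearest to the stretch, at peaks 6 and 7, thus faced each other, but neither was a match with the matrix learned from all sequence, soft-masked sequence included. A single peak lay in the 72.6 kb between H19 and Igf2 outside the 5 near H19. This was peak 12, in an intron of the non-coding gene Gm33148, 32.61 kb from H19. It ranked 18735 in replicate 1 and 12221 in replicate 2, a mean percentile of 76.1 ± 6.8 (SD, n = 2), above all control region peaks in each library. Its match was on the forward strand with 2 CpG.

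Peak 12, chr7:142610740-142610778: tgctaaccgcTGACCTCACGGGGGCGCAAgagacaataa

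The 11.8 kb between Igf2 and Ins2 held 2 of the highest peaks of the window. A protein-coding transcript of Gm49394 also started in this stretch, at 142669942, 2379 bp from the summit of peak 15. Peaks 13 and 14 lay in an intron of Gm49394. Peak 15 (chr7:142672190-142672472) lay 5505 bp upstream of the distal Igf2 start and ranked 5591 in replicate 1 and 3681 in replicate 2, a mean percentile of 92.8 ± 2.0 (SD, n = 2). Peak 16 (chr7:142675735-142676000), 3549 bp further on, ranked 9670 and 6324, at 87.6 ± 3.5. Both were higher in each library than any peak between the H19 body and Igf2. Both had reverse matches, which point towards Igf2 and H19, and the scores differed, 13.4 at peak 15 and 17.8 at peak 16, in the reverse order of their heights.

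Peak 15, chr7:142672312-142672350: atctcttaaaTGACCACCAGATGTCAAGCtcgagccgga
Peak 16, chr7:142675844-142675882: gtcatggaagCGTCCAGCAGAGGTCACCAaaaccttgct

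Ins2, one of the 2 mouse insulin genes (reverse strand), had no promoter peak. The summit nearest to any of its starts was that of peak 16, 3663 bp away on the 3' side of the gene. GENCODE extends Ins2 over 64726 bp (chr7:142678656-142743381) through 1 long transcript, whereas 7 of its 9 transcripts span at most 1068 bp and RefSeq ends the gene at 142679726. Peaks 17 to 21 are inside the gene only on the long model, and lie upstream of the short one. The short gene itself held 3 forward matrix matches with scores of 13.4 to 14.2 and no optimal peak.

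Peaks 17 to 21 stood out from the other peaks of the window by the 99 bp around their best-scoring sites. Over that length every pair of them was more alike than any other pair of locus peaks. Their best-scoring sites are shown together for that reason, each on its own strand, with 5 bp on either side of the 19 bp in capitals.

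Peak 17, reverse strand, chr7:142714856-142714884: tgaatTGAACAGCAGAGGGAGACAaaggt
Peak 18, forward strand, chr7:142720920-142720948: cgagtTGAACAGCAGAGGGAGACAgaggt
Peak 19, forward strand, chr7:142726199-142726227: tgagtCAAACAGCAGAGGGAGACAaaggt
Peak 20, forward strand, chr7:142737118-142737146: tgaatCAACCACCAGAGGGAGACAaagac
Peak 21, reverse strand, chr7:142737949-142737977: agaatCGACCACCAGAGGGAGACCaagac

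Over 99 bp centred on the sites and aligned without gaps, the 10 pairs among these 5 peaks were identical at 54 to 81 positions, with a median of 68. The other 200 pairs of locus peaks were identical at 18 to 53, with a median of 29. The lowest of the 10, peaks 18 and 20 at 54, was close to peaks 8 and 9 at 53. Within the 19 bp the ranges overlapped, at 15 to 19 for the 10 pairs and 5 to 17 for the others. Peaks 8 and 11 had the 17. Peak 10 was centred here on its best-scoring place, not on its copy of the control region string. Peaks 17 and 18 had the same 19 bp on opposite strands, and peaks 20 and 21, only 817 bp apart, were the most similar pair over 99 bp and faced each other. All 5 held the string CAGAGGGAGAC within 100 bp of the summit, the longest that their best-scoring sites share, searched on both strands. It was derived from them, and it occurred in 0.192% of optimal peaks on odd-numbered chromosomes, and once more in this window, 9732 bp from the nearest summit. The sites of peaks 17 and 18 lay in part in soft-masked (repeat) sequence, 52.6% and 84.2% of their 19 bp, and those of the other 3 did not.

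**Figure D3:**
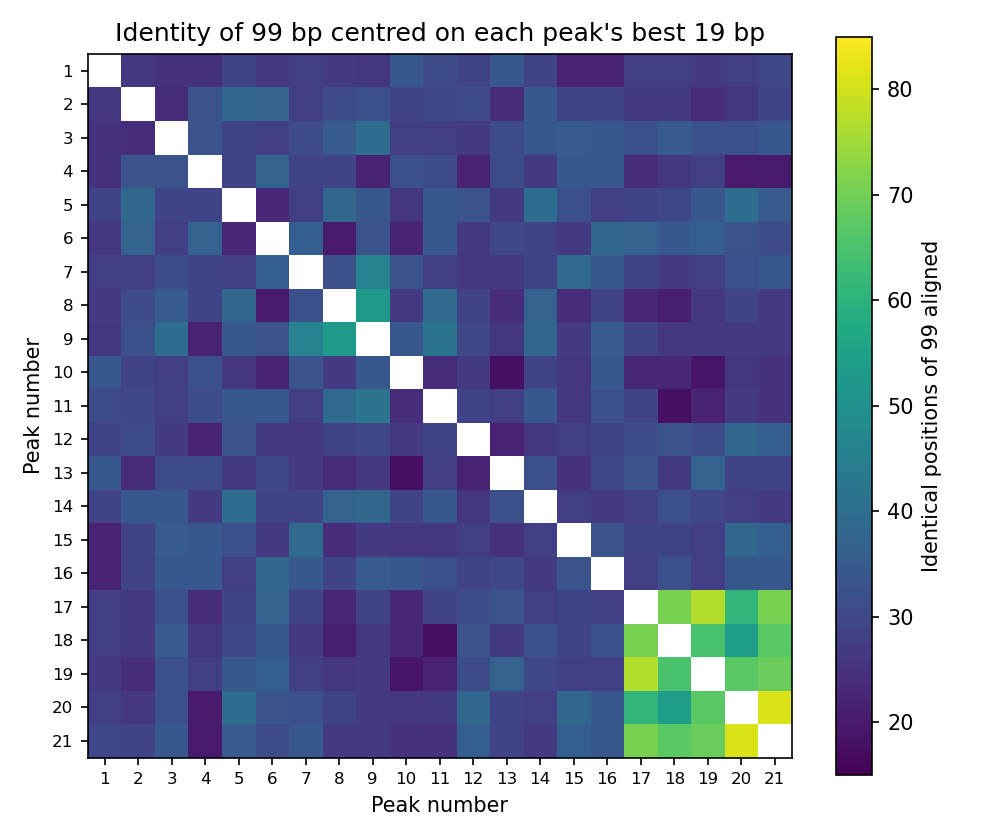
Each cell gives the number of identical positions, of 99 aligned without gaps, between 2 of the 21 locus peaks (x and y, by number), each window centred on the peak's best-scoring 19 bp and read on the strand of that site. Peaks 17 to 21 form a block of 54 to 81 identical positions in the lower right corner, against 18 to 53 elsewhere.

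These 5 peaks differed in height. Peak 20 was the highest of the window in the optimal list, at percentile 95.8, and ranked 9073 in replicate 1 and 738 in replicate 2, a mean of 92.5 ± 9.0 (SD, n = 2). Peaks 17 and 21 stood at 84.2 ± 3.6 and 80.8 ± 6.6. Peaks 18 and 19 were lower in each library, at 69.2 ± 2.7 and 60.5 ± 4.7. The scores were 14.4 at peaks 17 and 18, 13.1 at peak 19 (just under the threshold), 16.9 at peak 20 and 17.6 at peak 21. Peaks 17 and 18 thus differed in height with the same 19 bp and the same score.

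**Figure D4:**
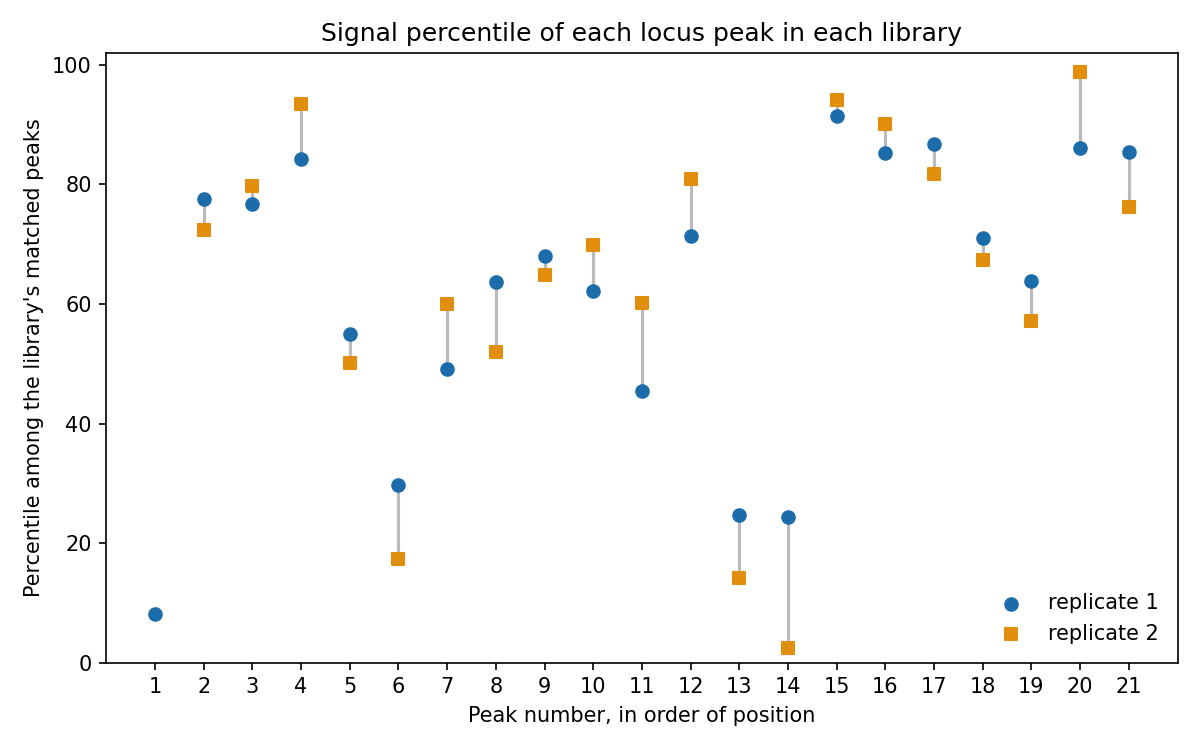
For each of the 21 peaks (x, by number), the signal percentile among the library's matched peaks is shown for replicate 1 (circles) and replicate 2 (squares), joined by a line. Peaks 13 and 14 at the Igf2 promoters and peak 6 in Nctc1 stay under 30 in both libraries, peaks 15 and 20 lie above 86 in both, and peak 1 has no value in replicate 2.

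By the median, the libraries differed more at the locus peaks than over all optimal peaks. Over the 20 peaks matched in both, the median size of the difference between percentiles was 8.6 points, against 6.6 over the 63805 optimal peaks matched in both. The difference ran from -21.9 points at peak 14 to 14.6 at peak 11 (replicate 2 minus replicate 1), within the 26.7 points under which 95% of all optimal peaks lay. Of the 20, 9 were higher in replicate 2 and 11 in replicate 1.

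Matrix matches lay under 13 of the 21 locus peaks (61.9%), against 68.6% of optimal peaks on odd-numbered chromosomes, a share near the background. With the matrix learned from all sequence 9 did, against 60.1%, and peaks 6, 7, 12 and 15 had no match. Of the 13, 7 were forward and 6 reverse; 50% were forward on the odd-numbered chromosomes. At least 1 CpG lay in 5 of the 13 matches (38.5%), against 37.5%. The scores were on the low side: their median was 14.4 in the window and 17.2 over matched peaks, and no match of the window reached 19. At the stricter score that 1 in 100000 control positions passed, 4 locus peaks kept a match, peaks 3, 16, 20 and 21, against 41.4% of optimal peaks.

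The window held 26 matrix matches in all, of which 14 (53.8%) lay within 100 bp of an optimal summit, against 23.4% on the odd-numbered chromosomes. Of the 16 with a score under 15, 9 were under a peak, where the share on those chromosomes was 10%. Of the 7 from 15 to 17, 2 were (20.1%), and of the 3 from 17 to 19 all were (56.0%). The window is denser in peaks, with 9.64 per 100 kb against 2.49 over all 20 chromosomes. Whether the shares differ beyond this density was not tested. The 12 matches without an optimal peak included 1 at 142587839, 9.70 kb upstream of H19, which had the highest score among them, 16.6.

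**Figure D5:**
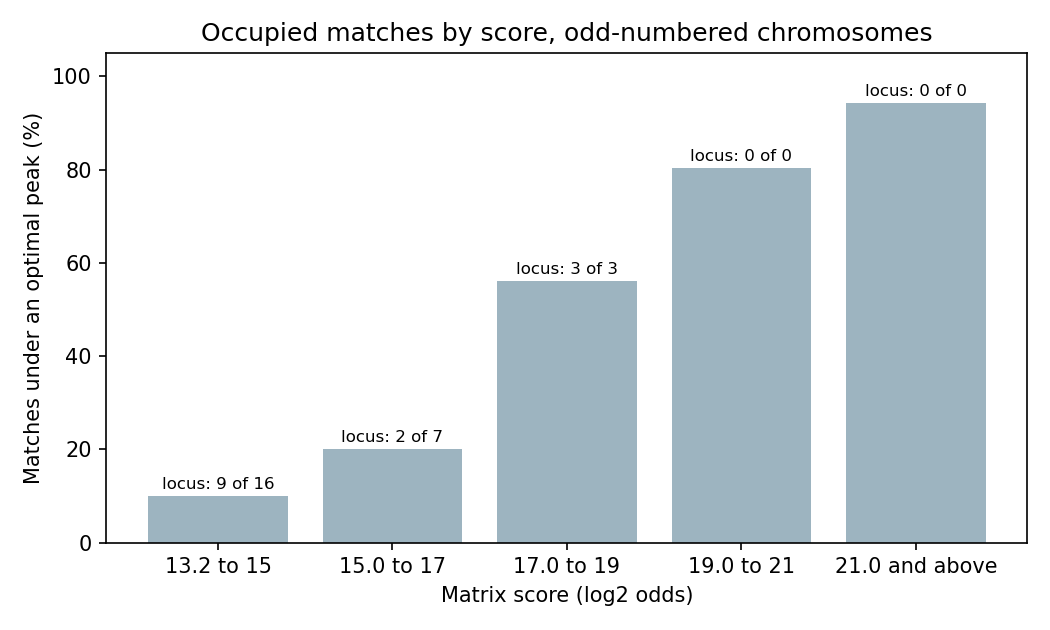
Bars give the share of matrix matches on odd-numbered chromosomes that lie within 100 bp of an optimal summit (y, in %) for 5 ranges of the matrix score in log2 odds (x); the text on each bar gives the same count for the window. The share rises from 10% to 94.2% with the score, and the window has 9 of 16 in the lowest range and no match at 19 or above.

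At the edge of the optimal list, peaks 1 and 13 were the last of the window inside it, at ranks 62696 and 62579 of the pooled list. The highest pooled peak left outside ranked 61633. It lay at 142671243, 1078 bp from peak 15 and over a reverse match with a score of 15.6, and ranked 54197 in replicate 1 with no overlapping peak in replicate 2. In all, 25 of the window's 46 pooled peaks were outside the optimal list. Between 1 and 5 kb upstream of H19 the relaxed lists added 1 peak, in replicate 1, 4361 bp upstream and at rank 209015.

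Of 21 other genes of the insulin and insulin-like growth factor pathway, 7 had a promoter peak (33.3%), near the 39.4% of protein-coding genes. The ligand gene Igf1 had one 29 bp from a start at percentile 21.9, and Ins1, the other insulin gene, had its nearest summit 70302 bp away. Of the receptors, Igf1r had one at percentile 26.9, 13.6 in replicate 1 and 38.8 in replicate 2. Insr (insulin receptor), Insrr and Igf2r (the receptor that clears IGF2) had none.

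Among the binding protein genes, Igfbp4 and Igfbp7 had one, at percentiles 38.0 and 70.5, and Igfbp1, Igfbp2, Igfbp3, Igfbp5 and Igfbp6 had none. Of the signalling adaptors, Irs1 had one at 67.4 and Grb10, an imprinted inhibitor of these receptors, at 77.9. The RNA-binding protein gene Igf2bp2 had one at 2.2. With summits within 2500 bp of a start, 15 of the 21 had a peak, against 49.9% of protein-coding genes, so the count depends on the width: Insr, Insrr, Irs2, Irs4, Igfbp1, Igfbp3, Igfbp5 and Igf2bp1 had their nearest summit between 1012 and 2436 bp from a start.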

How the data were processed

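CTCF ChIP-seq was analysed from 5 deposited narrowPeak lists on mm10: 1 for each library, 1 from both libraries pooled, and 2 filtered for reproducibility (conservative and optimal), per a notes file deposited with them. The aligner, caller and thresholds were not given in the sources used here. The authors' signal value served to rank peaks inside each list, never across lists. The deposited -log10 q-value (column of q-values) shared 1 highest value among many peaks and ranked nothing. The deposited summit offset gave positions. Sequences and genes came from GRCm38.p6, the same assembly as mm10, GENCODE M21 and RefSeq; all peaks on 20 chromosomes lay within chromosome ends, and 12 optimal peaks on unplaced contigs were left out.

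A library's peak was matched to an optimal peak by overlap of at least 1 bp, taking the nearest summit. The CTCF matrix was learned from 18267 peaks of even-numbered chromosomes outside soft-masked sequence, and thresholds from 28189 windows 2 kb from summits; a match has its centre within 100 bp of the summit. Backgrounds on odd-numbered chromosomes include chromosome 7. Strings were derived by a script from locus peaks. Learning and strand calls were tested on simulated data. Members, lists and rules were chosen with earlier results of these data known, and the text names all window peaks. With 1 group of 2 libraries no test was run, and n = 2 in every SD. Python 3.11.15, numpy 2.4.6, pandas 2.3.3 and numba 0.67.0 were used. Alternatives are given in the closing section.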

Additional observations from a re-analysis of the deposited data

How the results depend on the processing

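The window held 19 peaks in the conservative list and 19 to 21 with a library left out, and the control region kept 4 peaks in the conservative list and in each library alone (5 with 1 to 5 kb upstream). Without replicate 1, 1 of the 5 genes had a promoter peak (Mrpl23), and 1 to 2 over both left-out libraries; with gene 5' ends only, 1 did. With the stricter score (1 in 100000 control positions), 4 locus peaks had a match, 2 forward and 2 reverse, 3 with a CpG, and 4 window matches lay under a peak. With the matrix learned from all sequence, 9 locus peaks had a match, 5 forward and 4 reverse, 4 with a CpG, and 10 window matches lay under a peak. Counting the control region string where no matrix match lay, added after seeing the data, gave 17 peaks with a site, 10 of them reverse. With promoters of 2500 bp, 15 pathway genes had a peak. The median locus percentile was 66.5 in the conservative list and 68.0 to 68.6 with a library left out. Matching peaks 11 and 14 to the highest-signal library peak would give ranks 19247 and 67330 in replicate 2. Single-peak percentiles moved by more than the spread between libraries for 4 of 19 peaks in the conservative list and 6 of 20 without replicate 1. Without replicate 2, 3 of 21 were counted as moved, among them peak 1, which has no replicate 2 value and so no spread. With a library left out, the optimal-list percentile is set against one among the other library's matched peaks. For the conservative list it is set against one among that list's 59444 peaks, and all 19 values were lower there. These counts therefore mix 2 bases and do not measure stability alone. No paired analysis was possible because there is 1 group. Depth is unknown and limits what the lowest peaks, those at Igf2 among them, can show.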
